A study of Homo sapiens with 9 samples.

Results

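SAT1 and 9 other genes of polyamine metabolism were followed in RNA sequencing libraries of HCT116, a long-established line of human colon carcinoma cells. These 10 genes, of 58395 genes in the deposited tables, were taken from a list of polyamine synthesis, antizyme and breakdown genes and matched by their Ensembl identifiers. All 10 passed the filter on low counts in each comparison. The list was selected on the TPM and counts of these same libraries, in which SAT1 differed between the groups. The levels and fold changes of the 10 genes are therefore given as a description, without p-values. Where these genes are named as called or not called below, the label marks the threshold of the edgeR fit (adjusted p below 0.05). That fit used the counts that chose the list, so a call, kept or lost, is no independent test of these genes.

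All 9 libraries came from cells that carried a short hairpin RNA against STBD1 (shSTBD1), a glycogen-binding protein that has been proposed to hand glycogen to the autophagy machinery. The 3 groups held 3 biological replicates each. Cells labelled plvx neo carried the empty plvx-ires-neo lentiviral vector, cells labelled STBD1 WT expressed STBD1 that the hairpin cannot target, and cells labelled STBD1 W203C expressed the same protein with a tryptophan in its motif for binding ATG8 proteins changed to cysteine. The cells were made by lentiviral infection and drug selection, and they were grown in serum-containing medium without further treatment. Neither isolation of single clones nor repeated infections per construct are described for them. An effect of a construct and a difference between infected populations therefore cannot be told apart. The errors and p-values below measure the spread between the libraries of a group. The study made this experiment to follow up a knockdown experiment on how STBD1 holds back tumour growth.

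For the constructs, the labels of the samples disagree with the names of their tables, since each names as WT what the other names as W203C. A per-library listing in the study's supplementary files follows the table names. The labels were followed here, and every group below is called by its label. If the labels are the ones exchanged, each difference between STBD1 W203C and STBD1 WT has the opposite sign and the values against plvx neo belong to the other construct. Over all genes, the libraries labelled STBD1 W203C were the nearer to the vector, with 5.7% of 15081 genes called against plvx neo, beside 27.8% of 15289 genes for those labelled STBD1 WT (edgeR's quasi-likelihood test, adjusted p below 0.05). Which name is right was not tested.

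Total expected counts ranged from 16.9 to 23.3 M (mega) per library, and the spread between replicates was small, with a biological coefficient of variation of 4.05 to 4.21%. STBD1 stood at 3.27 ± 0.547 TPM (a transcript level scaled by length and library total; mean ± SD, n = 3) in plvx neo. It reached 10.8 ± 0.0693 TPM with the STBD1 WT construct and 9.15 ± 1.04 TPM with the STBD1 W203C construct, and the read-through gene FAM47E-STBD1, which shares its reads, stood at 1.58, 43.7 and 36.9 TPM. Both constructs were therefore above the vector, but these values cannot tell which construct carries the changed residue. The constructs also differed in level. STBD1 was -0.28 (SE 0.0772) and FAM47E-STBD1 -0.27 (SE 0.0575) on the log2 scale in STBD1 W203C against STBD1 WT. Both were called, without overlap in TPM, but only 1 of the 2 stayed called without STBD1 W203C replicate 1 or 2. The part of this difference in the results below was not tested. Of the colon epithelial markers, EPCAM, KRT8, KRT18, CDH1 and CDX2 were present (CDX2 lowest, at 5.16 to 9.35 TPM) and VIL1 was nearly absent (at most 0.08 TPM). PTPRC, PECAM1, COL1A2 and PDGFRB, markers of leukocytes, endothelium and stromal cells, stayed at or below 0.3 TPM, while COL1A1 was at 12.6 to 21.6 TPM. Of the 6 markers with enough counts to test, 5 were called in STBD1 WT against plvx neo, 3 between the constructs and 2 in STBD1 W203C against plvx neo. COL1A1 and CDH1 were higher in STBD1 WT than in plvx neo, by 0.48 and 0.27 on the log2 scale. They differed by -0.49 and -0.27 between the constructs. In these comparisons the directions were those described below for SAT1. In STBD1 W203C against plvx neo, where SAT1 was lower, neither marker was called, with log2 fold changes of -0.01 and 0.0005. KRT8 and KRT18 were lower than the vector with either construct, with log2 fold changes of -0.43 and -0.44 for STBD1 WT and of -0.41 and -0.44 for STBD1 W203C, as described below for OAZ1. EPCAM differed by -0.11 and 0.14 in the comparisons with STBD1 WT, and CDX2 was not called. The part of these shifts in the results below was not tested. In such bulk libraries, fewer cells expressing a gene and less RNA per cell cannot be told apart.

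Polyamines (putrescine, spermidine and spermine) are small positively charged molecules that bind RNA and DNA and that growing cells need. ODC1 makes putrescine from ornithine, and SRM and SMS extend it to spermidine and spermine with aminopropyl groups that AMD1 prepares from S-adenosylmethionine. Antizymes (OAZ1, OAZ2) bind ODC1 protein and send it to the proteasome when polyamines are plentiful, and the antizyme inhibitor AZIN1 releases it. SAT1 acetylates spermidine and spermine as the first step of their breakdown and export, and SMOX oxidises spermine directly. Colon tumours commonly show high ODC1 activity, and ODC1 is a classical target of the MYC transcription factor. Much of the control of ODC1, AMD1, the antizymes and SAT1 acts on translation and protein stability, which RNA levels do not show.

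The start regions of 3 of these genes are shown because SAT1 on one side and ODC1 and SRM on the other had the largest differences of the 10 genes in the construct comparison, in opposite directions. RefSeq start regions (GRCh38.p14) were at hand for 8 of the 10 genes, with no entry for AZIN1 and SMOX. SAT1 lies on the plus strand of chromosome X, 23783173 to 23786210 (hg38, GENCODE 44), and the 250 bases before its start are chrX:23782923-23783172. SRM lies on the minus strand of chromosome 1, 11054584 to 11060020, and the 248 bases shown are chr1:11060021-11060268. ODC1 lies on the minus strand of chromosome 2, 10439968 to 10448327, and the 106 bases shown, chr2:10448015-10448120, lie outside its annotated exons and precede the start of a shorter RefSeq transcript. Each is written 5′ to 3′ on the strand of its gene. Capitals mark the E-box CACGTG, the sequence that MYC with MAX is known to bind, and the CCAAT box on either strand (ATTGG when read from the other strand).
SAT1: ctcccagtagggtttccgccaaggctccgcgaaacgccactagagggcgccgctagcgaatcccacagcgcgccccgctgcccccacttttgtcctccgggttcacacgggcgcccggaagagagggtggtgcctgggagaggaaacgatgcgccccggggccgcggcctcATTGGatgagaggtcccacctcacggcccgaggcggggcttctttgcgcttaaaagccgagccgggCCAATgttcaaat
SRM: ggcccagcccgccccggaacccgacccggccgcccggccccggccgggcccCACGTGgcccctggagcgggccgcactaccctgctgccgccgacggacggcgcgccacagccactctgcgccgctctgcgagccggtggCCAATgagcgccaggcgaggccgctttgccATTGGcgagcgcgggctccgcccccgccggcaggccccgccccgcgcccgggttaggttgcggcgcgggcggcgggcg
ODC1: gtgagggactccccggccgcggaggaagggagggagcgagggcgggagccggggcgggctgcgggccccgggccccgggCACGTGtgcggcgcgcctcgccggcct

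The SRM and ODC1 stretches each held 1 E-box and the SAT1 stretch held none, while SAT1 and SRM each held 2 CCAAT boxes and ODC1 held none. The region before the first listed ODC1 start held no E-box, and the E-box shown lay 286 bases after that start. A further E-box of ODC1 lay 34 bases downstream of the one shown, at 10448002 to 10448007, in an exon of another ODC1 transcript. Among all 35116 RefSeq start regions, read over 250 bases on both strands, 6.34% held CACGTG and 32.0% held CCAAT. Over the 8 genes, 2 (ODC1 and SRM) held CACGTG in at least 1 of their listed start regions and 6 held CCAAT. For AMD1 the CCAAT was in the region at 110814367 to 110814666 alone. Counts by gene over several starts are not a like measure to shares of single regions. Within these 250 bases, the polyamine response element TATGACTAA was found in none of the 8, against 0.0826% of all start regions. Bases further upstream were not searched, so an element lying there would be missed. TGANTCA (AP-1) was found in OAZ2 only, against 6.57%, and TATAA in AMD1 and ODC1, against 18.9%. The motifs were picked with the sequences in view, several genes have more than 1 listed start, and a match is a stretch of letters, not a measured binding site.

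The 10 genes spanned a wide range of levels. Averaged over the 9 libraries, OAZ1 was the most abundant at 1031 TPM, followed by SAT1 at 342, ODC1 at 266, SRM at 129.5, SMS at 107, OAZ2 at 83.1, AMD1 at 51.3, AZIN1 at 50.04, SAT2 at 29.7 and SMOX at 25.3 TPM. Ranges over the libraries overlapped between the neighbours SAT1 and ODC1, SRM and SMS, AMD1 and AZIN1, and SAT2 and SMOX. SRM was nevertheless above SMS in 9 of 9 libraries, and SAT2 above SMOX in 9 of 9. SAT1 was above ODC1 in 5 of 9 libraries. It was above in every STBD1 WT library and below in every STBD1 W203C library. In plvx neo the order differed between libraries, with SAT1 below ODC1 in replicate 1 and above it in replicates 2 and 3.

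**Figure D1:**
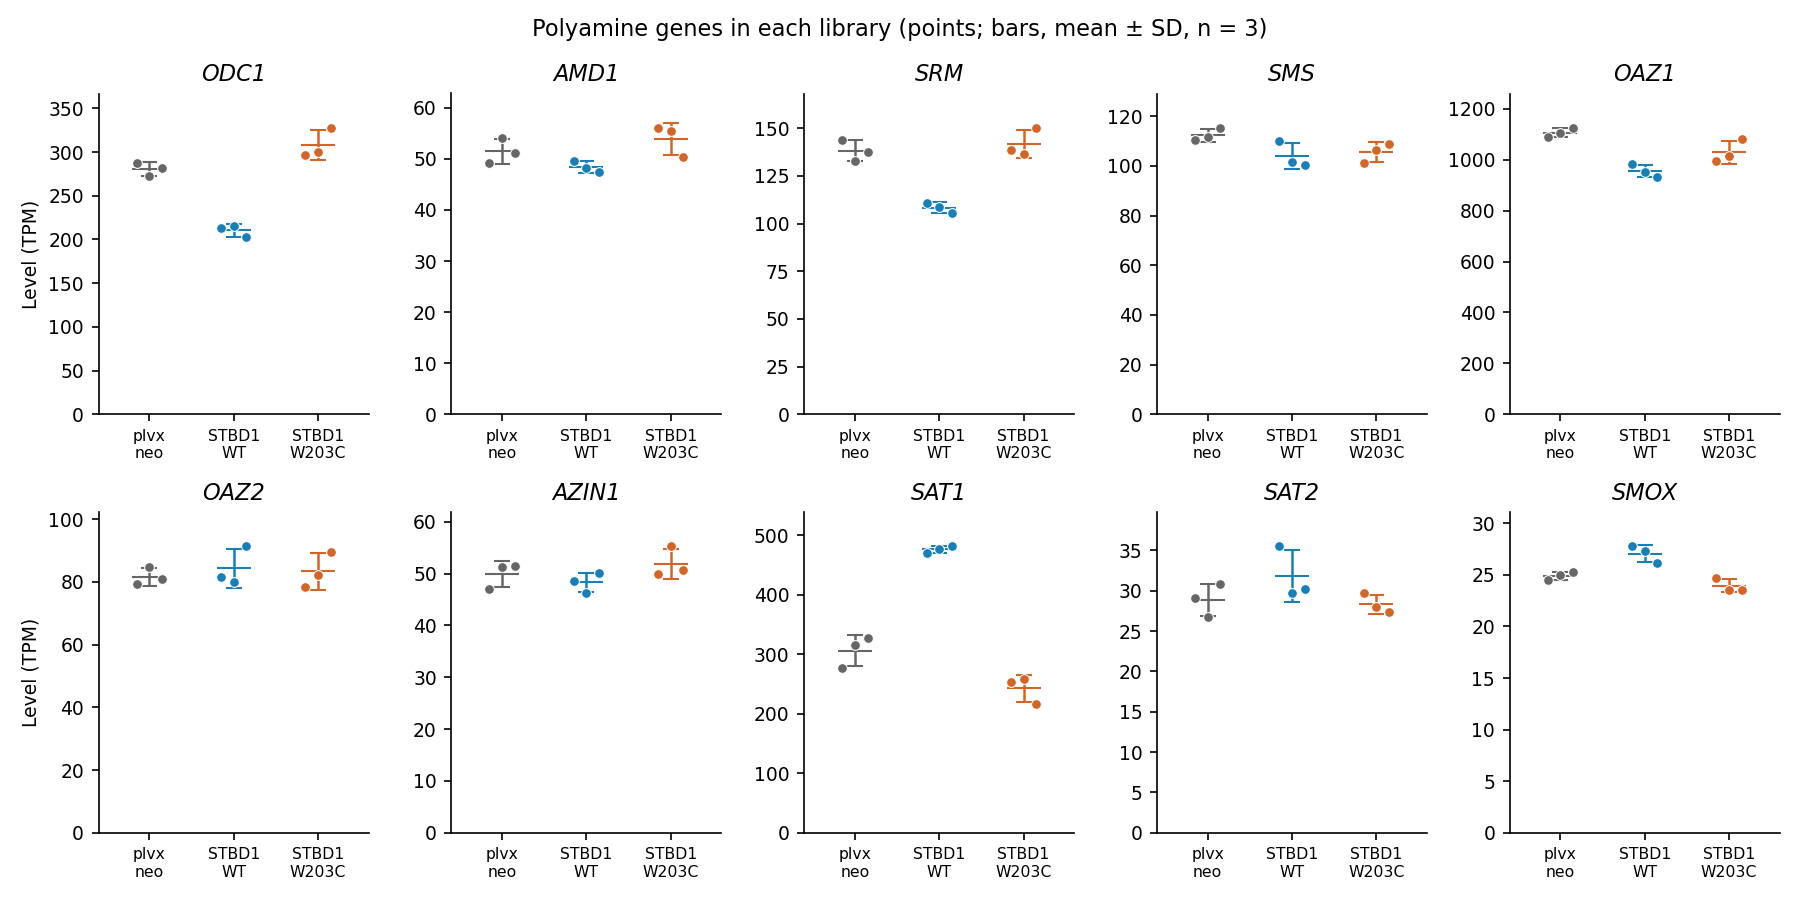
TPM of the 10 polyamine genes (panels, each with its own axis from 0) in each library of the 3 groups, with the mean ± SD of 3 libraries as bars. SAT1 is highest and ODC1 and SRM are lowest in the libraries labelled STBD1 WT, and the ranges of AMD1, OAZ2 and AZIN1 come close or overlap.

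SAT1, the acetyltransferase that starts polyamine breakdown, differed most of the 10 genes. Its levels were 276, 315 and 326 TPM in plvx neo, 471, 477 and 481 TPM in STBD1 WT, and 253, 258 and 216 TPM in STBD1 W203C. The groups did not overlap in any pair, with STBD1 WT on top, plvx neo between and STBD1 W203C lowest, and the STBD1 WT libraries lay within a span far narrower than the distance to the other groups. On the log2 scale the SAT1 count was 0.61 (SE 0.0410) higher in STBD1 WT than in plvx neo, a fold of 1.53. The difference of STBD1 W203C from STBD1 WT was -1.01 (SE 0.0474), which left 0.496 of the STBD1 WT level. Between STBD1 W203C and plvx neo the difference was -0.40 (SE 0.0524), or 0.757 of the vector level. By size of log2 fold change, SAT1 ranked 925th of 15289 genes, 190th of 15052 and 1167th of 15081 in these comparisons, so many genes outside the pathway differed more. A same-strand gene model of GENCODE 44, ENSG00000288706, overlaps SAT1 and was not analysed here.

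ODC1, the enzyme that commits ornithine to polyamine synthesis, showed the reverse order. It stood at 288, 272 and 282 TPM in plvx neo, at 213, 215 and 202 TPM in STBD1 WT, and at 296, 300.5 and 328 TPM in STBD1 W203C. Every STBD1 WT library was below every library of the other groups, and the STBD1 W203C libraries lay just above those of plvx neo. Against plvx neo, its log2 fold change was -0.42 (SE 0.0405) for STBD1 WT and 0.07 (SE 0.0423) for STBD1 W203C, and between the constructs it was 0.49 (SE 0.0432). The value of STBD1 W203C against the vector was not called, although the TPM ranges did not overlap.

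SRM, which makes spermidine, followed ODC1. Its levels were 144, 133 and 138 TPM in plvx neo, 111, 109 and 105 TPM in STBD1 WT, and 139, 137 and 150.2 TPM in STBD1 W203C. STBD1 WT was below both other groups without overlap, and those groups overlapped each other. On the log2 scale SRM differed by -0.32 (SE 0.0499) in STBD1 WT against plvx neo and by 0.35 (SE 0.0486) between the constructs, and by 0.02 (SE 0.0466) in STBD1 W203C against the vector.

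The remaining synthesis genes moved little. AMD1, which decarboxylates S-adenosylmethionine, ranged from 47.5 to 56.1 TPM over the 9 libraries. Its only called difference was in STBD1 W203C against STBD1 WT, at 0.11 (SE 0.0379), and that call was lost in 10 of 12 alternative settings, the omission of any of these 6 libraries but STBD1 W203C replicate 3 included. SMS, which makes spermine, ranged from 100.4 to 115 TPM and was called in no comparison. Against plvx neo, its log2 fold change was -0.09 (SE 0.0409) for STBD1 WT and -0.11 (SE 0.0409) for STBD1 W203C, with TPM ranges that did not overlap. In STBD1 W203C against STBD1 WT, where ODC1 and SRM were higher, its value was -0.01 (SE 0.0437).

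Among the genes that govern ODC1 protein, OAZ1 was the one with called differences. The antizyme stood at 1089, 1105 and 1126 TPM in plvx neo, 982, 953 and 934 TPM in STBD1 WT, and 996, 1013 and 1080.1 TPM in STBD1 W203C. All vector libraries were above all libraries of both constructs. Against plvx neo, the log2 fold change was -0.24 (SE 0.0369) for STBD1 WT and -0.16 (SE 0.0354) for STBD1 W203C, while the difference between the constructs, 0.09 (SE 0.0395), was not called. The call of STBD1 W203C against plvx neo was lost without plvx neo replicate 3, STBD1 W203C replicate 1 or STBD1 W203C replicate 2, and with limma on TPM. Exons of OAZ1 overlap those of JSRP1 on the other strand and of ENSG00000273734 on the same strand, so its level carries that uncertainty. OAZ2, a second antizyme, ranged from 78.2 to 91.3 TPM and AZIN1, the antizyme inhibitor, from 46.3 to 55.3 TPM. Neither was called in any comparison, and their log2 fold changes lay between -0.04 and 0.04. Both overlap other gene models (ENSG00000265967 on the other strand for OAZ2 and ENSG00000289653 on the same strand for AZIN1).

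The other breakdown genes were an order of magnitude below SAT1. SAT2, a relative of SAT1 that is a weak polyamine acetyltransferase and prefers the lysine derivative thialysine, was at 29.1, 26.8 and 30.8 TPM in plvx neo, 35.5, 29.8 and 30.3 TPM in STBD1 WT, and 29.7, 28.02 and 27.4 TPM in STBD1 W203C. One STBD1 WT library was well above the rest and no difference was called, with a log2 fold change of -0.15 (SE 0.0815) between the constructs. SMOX, the spermine oxidase, was at 24.5, 25.0 and 25.3 TPM in plvx neo, 27.8, 27.3 and 26.1 TPM in STBD1 WT, and 24.6, 23.6 and 23.6 TPM in STBD1 W203C. STBD1 WT was above both other groups without overlap, as for SAT1, but by far less. The log2 fold change of SMOX was 0.12 (SE 0.0527) in STBD1 WT against plvx neo, not called, and -0.18 (SE 0.0543) in STBD1 W203C against STBD1 WT, a call that was lost without STBD1 WT replicate 1, with DESeq2 and with limma on TPM.

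**Figure D2:**
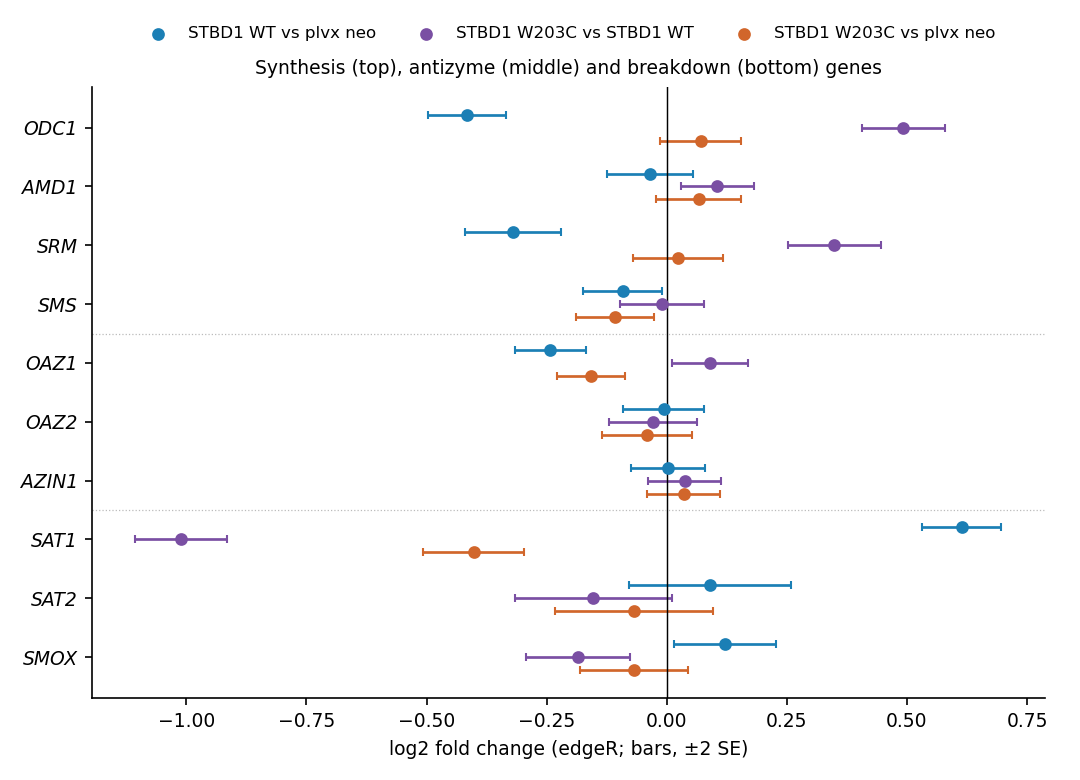
log2 fold changes of the 10 genes (x axis; bars, ±2 SE) in the 3 comparisons (colours), from edgeR fits of 6 libraries each. SAT1 is at 0.61, -1.01 and -0.40, ODC1 at -0.42, 0.49 and 0.07 and SRM at -0.32, 0.35 and 0.02, while OAZ2 and AZIN1 stay near 0.

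Counted together, 4 of the 10 genes were called in STBD1 WT against plvx neo, at an adjusted p below 0.05 in the edgeR fit over all genes. SAT1 was higher and ODC1, SRM and OAZ1 were lower, against 27.8% of 15289 genes called (13.9% higher, 13.9% lower). In STBD1 W203C against STBD1 WT, 5 were called, with ODC1, SRM and AMD1 higher and SAT1 and SMOX lower, against 27.9% of 15052 genes (14.5% higher, 13.4% lower). In STBD1 W203C against plvx neo, 2 were called, SAT1 and OAZ1, both lower, against 5.7% of 15081 genes (3.03% higher, 2.67% lower). TPM ranges did not overlap for 6, 7 and 4 of the 10 genes in these comparisons, against 31.3%, 33.1% and 20.2% of the genes tested. The libraries of the constructs lay on opposite sides of those of plvx neo, without overlap, for 2 of the 10 genes (SAT1 and ODC1), against 2.16% of 15489 genes. The median log2 fold change of the 10 genes was -0.02, 0.01 and -0.05, near the 0.01, -0.01 and 0.00 of all genes. The genes were listed with these values known, so nothing is read from the counts. The comparisons share libraries, since each group enters 2 of the 3.

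The ratio of SAT1 to ODC1, a breakdown enzyme over the first synthesis enzyme, joined the opposite movements into a single value. As TPM over TPM, it was 1.09 ± 0.114 (SD, n = 3) with the vector, 2.27 ± 0.0979 with STBD1 WT and 0.791 ± 0.114 with STBD1 W203C. The lowest STBD1 WT library was at 2.20 and the highest library of the other groups at 1.16. The OAZ1 to ODC1 ratio was 3.95 ± 0.142, 4.55 ± 0.106 and 3.34 ± 0.0411 in the same order, so OAZ1 and ODC1 did not fall in proportion. The summed TPM of ODC1, AMD1, SRM and SMS was 583 ± 10.5 with the vector, 471 ± 14.6 with STBD1 WT and 609 ± 24.3 with STBD1 W203C. SAT1 made up 14.02% ± 0.944 of the summed TPM of the 10 genes with the vector, 22.7% ± 0.593 with STBD1 WT and 11.7% ± 1.36 with STBD1 W203C, whereas OAZ1 made up 50.7%, 45.6% and 49.7%. The sum over all 10 genes differed far less, at 2180.5, 2095 and 2069 TPM. These ratios restate the levels that chose the genes and were not tested.

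**Figure D3:**
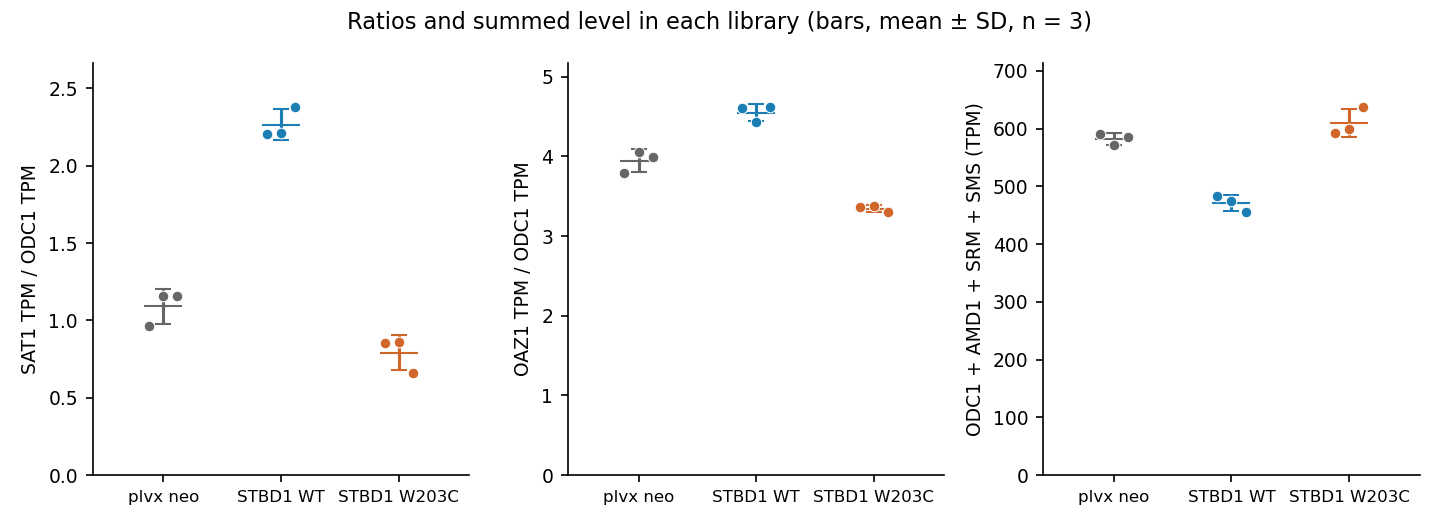
Ratio of SAT1 to ODC1 TPM, ratio of OAZ1 to ODC1 TPM and summed TPM of the 4 synthesis genes (y axes from 0) in each library, with mean ± SD of 3 libraries. The SAT1 to ODC1 ratio is above 2.20 in the STBD1 WT libraries and below 1.16 in all others.

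The length column of the tables, the mean transcript length of a gene weighted by the estimated share of each isoform, was not itself used to choose the genes. It is not separate from that choice, since the TPM used there is scaled by transcript length. For SAT1 the weighted length was 1029.2, 1026.0 and 1026.6 bases in plvx neo, 1020.2, 1022.9 and 1019.8 bases in STBD1 WT, and 1018.4, 1013.1 and 1015.0 bases in STBD1 W203C. The groups did not overlap in any of the 3 comparisons, and the order, with STBD1 W203C shortest, was not that of the SAT1 level. The means differed by -6.32 bases (STBD1 WT against plvx neo), -5.46 bases (STBD1 W203C against STBD1 WT) and -11.8 bases (STBD1 W203C against plvx neo), about -0.615%, -0.535% and -1.15% of the length. Each had p = 0.1 in a two-sided exact permutation test, the smallest value that 3 against 3 libraries allow, and an adjusted p of 0.375 over the 30 tests made for the 10 genes. No difference in length could therefore pass the threshold in this design.

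For ODC1 the weighted length was 2565 ± 7.04 bases in plvx neo, 2559 ± 12.6 bases in STBD1 WT and 2523 ± 9.19 bases in STBD1 W203C, with STBD1 W203C below all other libraries (exact permutation p = 0.1 against either group, adjusted p = 0.375). Of the 10 genes, 3, 2 and 3 had lengths that did not overlap for STBD1 WT against the vector, between the constructs, and for STBD1 W203C against the vector, beside 11.9%, 11.0% and 11.1% of 13416 genes with more than 1 transcript. These were SAT1 in all 3 comparisons, ODC1 in the comparisons with STBD1 W203C, SMS in STBD1 W203C against plvx neo, and AZIN1 and SAT2 in STBD1 WT against plvx neo. The tables list 9 SAT1 transcripts, of which 8 are in GENCODE 44, namely 2 coding (868 and 1049 bases), 5 with a retained intron and 1 annotated for nonsense-mediated decay, which is the longest at 1135 bases. Inclusion of the extra exon of that last form is a known way in which polyamines control SAT1. Isoform values were not analysed here, so which transcripts make up the difference is unknown. The ODC1 lengths exceed the 2476 bases of its longest transcript in GENCODE 44, and the source of that gap from the authors' gene models was not tested.

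**Figure D4:**
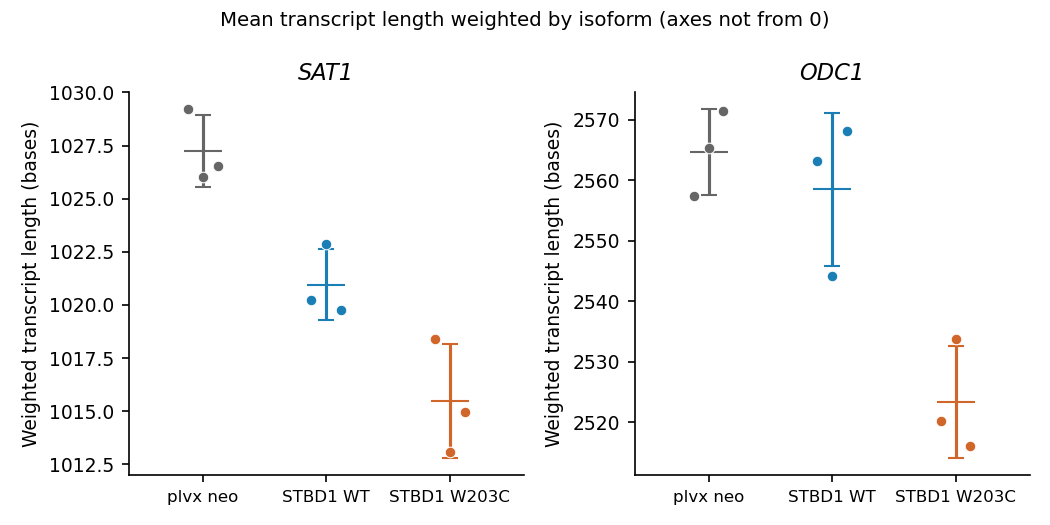
Weighted mean transcript length of SAT1 and ODC1 (bases; axes do not start at 0) in each library, with mean ± SD of 3 libraries. SAT1 falls into 3 separate ranges, with plvx neo longest and STBD1 W203C shortest, and ODC1 is shortest in STBD1 W203C.

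A wider list of 36 genes that supply, transport, modify or use polyamines was fixed by function, and 27 of them were tested in each comparison. The list was made with earlier results of these data known, and the adjusted p-values of its genes carry that limit. The 9 others never exceeded 0.51 TPM, among them ARG1, the organic cation transporter SLC22A2 and the diamine oxidase AOC1. By edgeR's quasi-likelihood test with Benjamini-Hochberg adjustment over all genes, 4 were higher and 5 lower in STBD1 WT against plvx neo, 7 higher and 4 lower in STBD1 W203C against STBD1 WT, and 0 higher and 1 lower in STBD1 W203C against plvx neo. These are 9, 11 and 1 of 27 genes, to be read beside the 27.8%, 27.9% and 5.7% called among all genes. Their median log2 fold changes were -0.02, 0.03 and 0.02, and all changes of these genes below are on the log2 scale.

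Uptake was represented by SLC3A2, the heavy chain of an amino acid exchanger that has also been linked to putrescine and arginine transport. Its levels were 314, 299 and 315 TPM in plvx neo, 219, 211 and 213 TPM in STBD1 WT, and 291, 279 and 329.6 TPM in STBD1 W203C, with STBD1 WT below all others. It fell by 0.54 (SE 0.0389) in STBD1 WT against plvx neo (edgeR quasi-likelihood adjusted p = 3.19e-09) and rose by 0.44 (SE 0.0515) in STBD1 W203C against STBD1 WT (edgeR adjusted p = 2.02e-06). CAV1, a caveolin connected with polyamine uptake, was lower in STBD1 W203C than in either other group, although its call against STBD1 WT was lost without STBD1 W203C replicate 1 or 2 and with limma on TPM. Its log2 fold change was -0.15 (SE 0.0383) against plvx neo (edgeR adjusted p = 0.0155), the sole call of the wider list in that comparison, and the call was lost without plvx neo replicate 1 or 3 or STBD1 W203C replicate 1 or 2, and with limma on TPM. The polyamine transporters ATP13A2 and ATP13A3 and the 3 other tested genes of the transport group were not called in any comparison.

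Hypusination, in which a part of spermidine is attached to the translation factor EIF5A, is a use of polyamines that the list covers with 4 genes, all tested. EIF5A stood at 1218, 1189 and 1235 TPM in plvx neo, 1093, 1048 and 1031 TPM in STBD1 WT, and 1236, 1253 and 1300 TPM in STBD1 W203C. It fell by 0.21 (SE 0.0377) in STBD1 WT against plvx neo (edgeR adjusted p = 0.000308) and rose by 0.22 (SE 0.0382) in STBD1 W203C against STBD1 WT (edgeR adjusted p = 0.000210). DOHH, which completes hypusine, followed it, with a fall of 0.22 (SE 0.0597, edgeR adjusted p = 0.00837) and a rise of 0.34 (SE 0.0581, edgeR adjusted p = 0.000171). DHPS, which carries out the first step, went the other way and fell by 0.17 (SE 0.0488) in STBD1 W203C against STBD1 WT (edgeR adjusted p = 0.0136), with overlapping TPM ranges. The DOHH call against plvx neo was lost without plvx neo replicate 3 or STBD1 WT replicate 2 and with limma on TPM. The DHPS call was lost without STBD1 WT replicate 1 or STBD1 W203C replicate 3, with DESeq2 and with limma. The paralogue EIF5A2 was not called.

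In the supply of aminopropyl groups and the salvage of their by-product methylthioadenosine, 8 of 8 genes were tested. ADI1, a dioxygenase late in methionine salvage, was at 21.3, 22.5 and 24.4 TPM in plvx neo, 17.6, 15.7 and 18.5 TPM in STBD1 WT, and 24.6, 24.9 and 25.8 TPM in STBD1 W203C. It fell by 0.40 (SE 0.0629) in STBD1 WT against plvx neo (edgeR adjusted p = 8.46e-05) and rose by 0.50 (SE 0.0610) in STBD1 W203C against STBD1 WT (edgeR adjusted p = 3.40e-06). ENOPH1, which acts just before ADI1, fell by 0.27 (SE 0.0488, edgeR adjusted p = 0.000347) and rose by 0.19 (SE 0.0462, edgeR adjusted p = 0.00302) in the same comparisons. MAT2A, the S-adenosylmethionine synthetase of dividing cells, and MRI1, an earlier salvage enzyme, rose by 0.12 (SE 0.0352, edgeR adjusted p = 0.0162) and 0.20 (SE 0.0751, edgeR adjusted p = 0.0498) in STBD1 WT against plvx neo. The MRI1 call was lost in 12 of 12 alternative settings, and the MAT2A call, whose TPM ranges overlapped, without plvx neo replicate 3 or STBD1 WT replicate 3, with no filter on low counts and with limma on TPM. MTAP, which cleaves methylthioadenosine itself, was not called in any comparison.

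Of the remaining groups, the oxidation and acetylation genes had both tested members called. PAOX, which oxidises the acetylated polyamines that SAT1 makes, was low, at 1.77, 1.70 and 2.51 TPM in plvx neo, 3.93, 2.86 and 2.90 TPM in STBD1 WT, and 1.93, 2.89 and 1.29 TPM in STBD1 W203C. It rose by 0.81 (SE 0.186) in STBD1 WT against plvx neo (edgeR adjusted p = 0.00275) and fell by 0.62 (SE 0.225) in STBD1 W203C against STBD1 WT (edgeR adjusted p = 0.0434), where the TPM ranges overlapped and the call was lost without any 1 of 5 of the 6 libraries, STBD1 W203C replicate 2 being the exception, and with DESeq2 or limma. With limma on log2(TPM + 1) the PAOX difference of STBD1 WT from plvx neo was 0.50, and its call was lost. HDAC10, which removes acetyl groups from acetylspermidine, rose by 0.29 (SE 0.0823, edgeR adjusted p = 0.0114) and fell by 0.21 (SE 0.0642, edgeR adjusted p = 0.0176) in these comparisons. Its first call, with overlapping TPM ranges, was lost without plvx neo replicate 2 or STBD1 WT replicate 1 and with limma. Its second was lost without replicate 1 of either construct, with DESeq2 and with all 9 libraries in the fit. The 2 known partners in SAT1 transcription were called only in STBD1 W203C against STBD1 WT, where SAT1 was lower and both were higher. PMF1 rose by 0.18 (SE 0.0611, edgeR adjusted p = 0.0309) and NFE2L2, the gene of NRF2, by 0.17 (SE 0.0425, edgeR adjusted p = 0.00370). The PMF1 call was lost without replicate 2 or 3 of STBD1 WT or replicate 1 or 3 of STBD1 W203C and with DESeq2, and the NFE2L2 call with limma on TPM. No gene of ornithine and arginine supply (ARG2 and OAT tested) and neither of the antizyme relatives OAZ3 and AZIN2 was called.

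**Figure D5:**
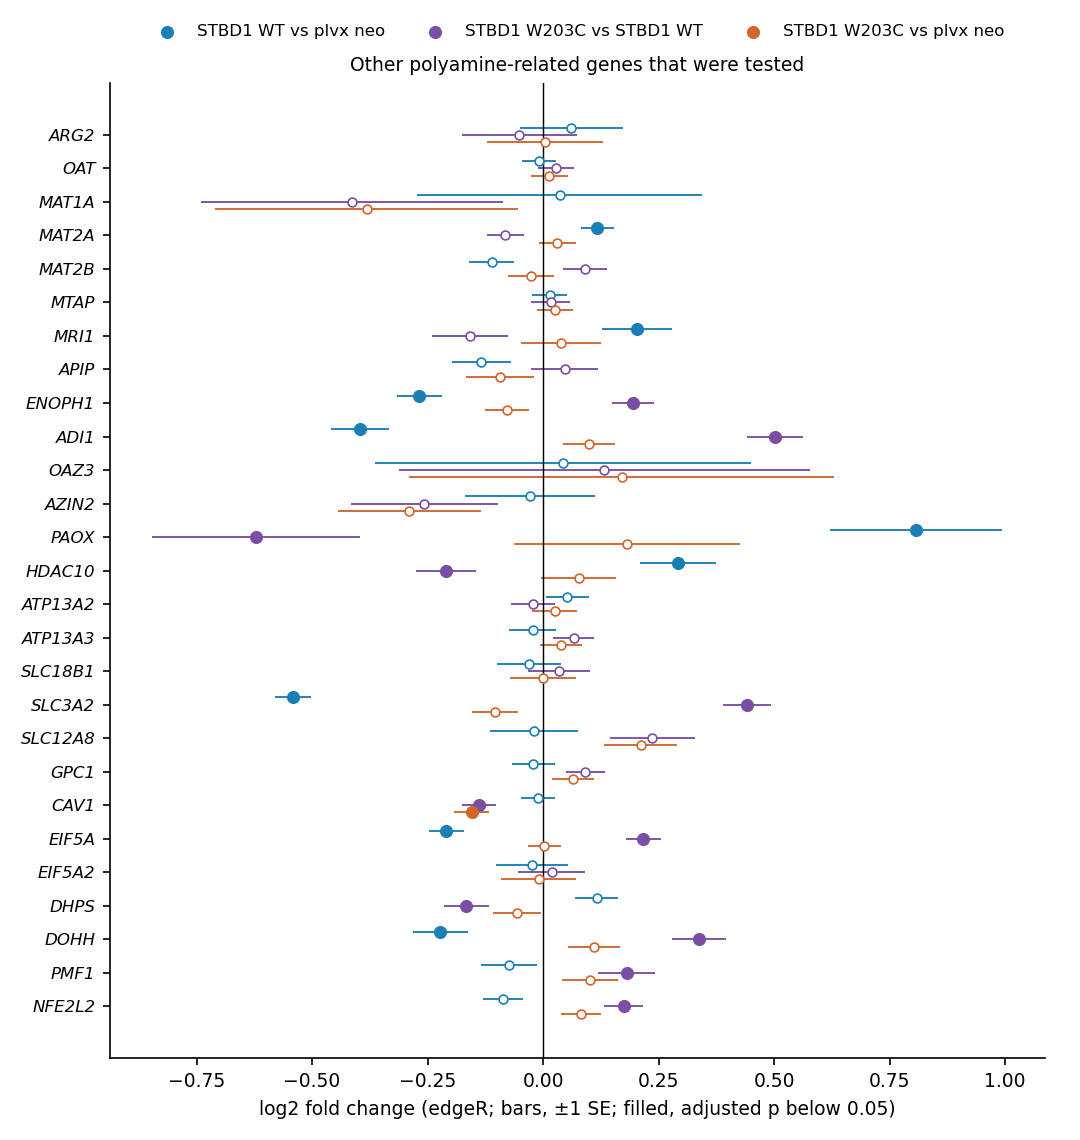
log2 fold changes (x axis; bars, ±1 SE) of the 27 tested genes of the wider list in the 3 comparisons (colours), filled where the edgeR adjusted p is below 0.05. SLC3A2, EIF5A, DOHH, ADI1 and ENOPH1 are lower in STBD1 WT against plvx neo and higher in STBD1 W203C against STBD1 WT, and PAOX and HDAC10 are the reverse.

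The pattern of SAT1 over the libraries was shared by many genes. Among 11317 genes whose mean reached 5 CPM (counts scaled to 1 M per library), 71 had a Pearson r with SAT1 above 0.95 over the 9 libraries and 108 had an r below -0.95, in log2 CPM. The 5 highest were NBR1 (r = 0.988), ANTXR2 (0.988), LOXL2 (0.988), CD9 (0.988) and EHBP1L1 (0.986), and the 3 lowest were BRPF3 (-0.991), CCNB1 (-0.988) and MRPS30 (-0.987). LOXL2, for example, averaged 17.8, 25.5 and 13.5 TPM in plvx neo, STBD1 WT and STBD1 W203C. In TPM the pattern was less clear for others. ANTXR2 averaged 4.88, 5.41 and 4.46 TPM in the same order. BRPF3 averaged 10.2, 8.07 and 9.96 TPM, so its mean in STBD1 W203C was not above that of the vector. Of the other polyamine genes, SMOX had an r of 0.96 with SAT1, ODC1 of -0.95 and SRM of -0.90, while SMS (-0.08), OAZ2 (0.13), AZIN1 (-0.42), OAZ1 (-0.46), AMD1 (-0.59) and SAT2 (0.59) were further from it. All these points are the same 9 libraries in 3 groups, so the values mostly describe which groups were high and low.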

How the data were processed

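Per the methods of the study, TRIzol RNA was made into NEBNext Ultra libraries, and the authors aligned filtered Illumina read pairs to hg38 with STAR 2.7.1a (Ensembl release 93) and quantified genes with RSEM 1.3.1. The deposited tables, 1 per library, hold expected counts (estimated, not always whole), TPM (scaled by the authors to transcript length and library total) and isoform-weighted lengths in bases. Whether counting used strand is not given in the sources used here. Symbols matched 98.9% of 58395 genes.

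Expected counts were rounded. In each comparison the 6 libraries were fitted alone with edgeR 4.0.16 (filterByExpr, TMM, two-sided quasi-likelihood F-test, R 4.3.3) over the whole table, with Benjamini-Hochberg adjustment, and a gene was called at an adjusted p below 0.05. The procedure was tried on data simulated for STBD1 WT against plvx neo alone. The simulation gave every gene the same spread between replicates and changed far fewer genes than were called here, so it does not cover such broad change. Lengths were compared by exact permutation (SciPy 1.17.1). The SE is the absolute log2 fold change over the square root of F. Replicates of a group differed by more than sampling noise (chi-square per gene 2.12 to 3.87, about 1 from noise alone, for genes reaching 20 counts over both). Alternatives were DESeq2 1.42.0, its size factors, no filter, all 9 libraries, a replicate block, limma 3.58.1 on log2(TPM + 1) and leaving out each library.

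The 10 genes, the wider list, the motifs and the tests were chosen with earlier results of these data known. Named from the wider list were the genes called, at most 10 per comparison by size, which leaves out CAV1 in STBD1 W203C against STBD1 WT as a value. Genes most like SAT1 were the 5 highest and 3 lowest in r (prior count 2).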

Additional observations from a re-analysis of the deposited data

Results flagged for a closer look

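For 5 genes, every library of STBD1 WT lay on one side of every plvx neo library in TPM and every library of STBD1 W203C on the other side. These are 5 of the 37 tested genes of both lists, beside 2.16% of 15489 genes. Between the constructs the log2 fold change was -1.01 for SAT1, 0.49 for ODC1, 0.50 for ADI1, 0.34 for DOHH and 0.22 for EIF5A. For SAT1, STBD1 WT was on the upper side of the vector and STBD1 W203C on the lower, and for the other 4 genes the sides were exchanged. SAT1 and ODC1 were listed for such values, so theirs are a description. For ODC1, ADI1, DOHH and EIF5A the step from plvx neo to STBD1 W203C was not called by edgeR's quasi-likelihood test, so the position on opposite sides rests on TPM ranges that were close together. On the log2 scale that step was 0.07, 0.10, 0.11 and 0.0025 in the order given. The counts of EIF5A thus showed next to no difference from the vector.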

How the results depend on the processing

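SAT1, ODC1 and SRM kept their calls in STBD1 WT against plvx neo and between the constructs under all 12 alternatives. These genes were listed with their values known and the alternatives use the same libraries, so this is a description and no independent support. SAT1 in STBD1 W203C against plvx neo lost its call only with limma on TPM, where 131 of 15081 genes (0.869%) were called, against 859 with edgeR. With limma, 0 of the 10 genes and 0 of the 27 wider-list genes were called there (3 and 4 at an unadjusted p below 0.05, and 2 and 1 by DESeq2), the wider list had 4 calls in STBD1 WT against plvx neo (11.5% of all genes), and the construct comparison had 3 and 7 (12.1% of all genes). DESeq2, run without the filter on low counts, also gave 3 and 7 in that comparison, the 7 being of 34 wider-list genes. It called 10.8% of 27338 genes there, a number that includes genes below the filter. That share is therefore not comparable with the 12.1% of limma, which kept the filter. Leaving out 1 library at a time gave 4 to 5, 3 to 5 and 1 to 3 calls among the 10 genes and 6 to 8, 8 to 10 and 0 to 2 in the wider list (in the order STBD1 WT to vector, construct to construct, STBD1 W203C to vector), beside 21.3 to 24.3%, 21.5 to 23.4% and 2.99 to 5.3% of all genes. The 3 calls of the construct comparison came without STBD1 WT replicate 1, and the 1 call against plvx neo without plvx neo replicate 3 or STBD1 W203C replicate 1 or 2. The wider list had 0 calls against plvx neo by edgeR (2 to 5 at an unadjusted p below 0.05) without plvx neo replicate 1 or 3 or STBD1 W203C replicate 1 or 2, and 2 without STBD1 W203C replicate 3. The SAT1 log2 fold change then ranged from 0.57 to 0.65, -1.04 to -0.94 and -0.45 to -0.33, and its length difference from -7.28 to -5.35, -6.91 to -4.27 and -13.2 to -10.6 bases. Values near 0 changed sign in some settings (AMD1, OAZ2 and AZIN1 in STBD1 WT against plvx neo, SMS and OAZ2 in STBD1 W203C against STBD1 WT, SRM and OAZ2 in STBD1 W203C against plvx neo), all of them not called. The causes were not tested.

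Same-numbered libraries did not deviate together over the genes as a whole (r from -0.0124 to 0.0677 across genes), and the labels give them only a shared number. All genes weighed alike in these values, so a batch shared in part of the genes could be missed. With the replicate block, 4, 4 and 2 of the 10 genes and 8, 11 and 1 of the wider list were called, beside 28.8%, 24.3% and 6.65% of all genes, AMD1 and MRI1 being the calls lost, and the SAT1 log2 fold change was 0.62, -1.01 and -0.40. With 3 libraries per group, lengths could not pass a threshold, and low genes such as PAOX had wide errors.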
